A study of Mus musculus with 8 samples.

Results

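The unfolded protein response chaperones and folding genes described here are 10 genes of the endoplasmic reticulum (ER): Xbp1, Hspa5, Hsp90b1, Dnajb9, Dnajc3, Sdf2l1, Creld2, Manf, Hyou1 and Herpud1. They were taken by gene symbol from 22180 genes measured on a microarray, each by the probe set with the highest mean over the 8 arrays, and all 10 were found, with 1 probe set each. The cells were primary articular chondrocytes, the cells of joint cartilage, from the femoral condyles and tibial plateaus of wild-type ICR mice aged 5 days. Total RNA was collected 24 h after infection with Ad-Zip8, an adenovirus carrying the zinc and divalent metal importer ZIP8 (gene Slc39a8; 4 arrays), or with Ad-null, the control adenovirus (4 arrays). Both groups carried an adenovirus, so no uninfected cells were compared. Although the labels call the samples biological replicates, they name no separate animals or pools. All p-values therefore rest on the spread among these arrays, which may be partly technical. The sources used here do not name the promoter that drives ZIP8 in the virus.

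Values are log2 intensities after RMA. This procedure corrects background, gives the probes of all arrays the same distribution and summarises them by probe set. The summarised values need not share that distribution, and array medians ran from 5.04 to 5.11. A log2 difference of 1 stands for a doubling. The targeted gene checks the labels: Slc39a8 was 30.4-fold higher in Ad-Zip8 cells than in Ad-null cells (log2 difference 4.93, SE 0.09, limma adjusted p = 3.49e-09). The 10 chondrocyte markers had a mean log2 value of 11.67 to 11.96 over the Ad-Zip8 arrays and 12.39 to 12.46 over the Ad-null arrays, and 8 of the 10 passed as lower. In these bulk samples, less RNA per cell and fewer cells of a type cannot be told apart. Of 7 fibroblast and synovium markers 4 passed as higher, with means of 9.54 to 9.80 with Ad-Zip8 and 9.05 to 9.28 with Ad-null. Macrophage markers lay at 4.94 to 5.01 with Ad-Zip8 and 4.86 to 4.98 with Ad-null, and endothelial markers at 4.57 to 4.66 with Ad-Zip8 and 4.47 to 4.62 with Ad-null, against array medians of 5.04 to 5.11. Of 9 macrophage markers 1 passed as higher, Cd68, at 7.43 ± 0.17 with Ad-Zip8 and 6.60 ± 0.24 with Ad-null (SD, n = 4 each; limma adjusted p = 0.00258), and none of 6 endothelial markers passed; Cd68 was picked out after its value was seen. Of 4 adipocyte markers 2 passed as higher (means of 5.92 to 6.22 with Ad-Zip8 and 4.95 to 5.39 with Ad-null). The log2 differences were 2.78 for Fabp4 and 0.34 for Adipoq, which passed, and 0.24 for Plin1 and 0.14 for Lpl. Adipoq averaged 4.18 with Ad-Zip8 and 3.83 with Ad-null, below the array medians. Of 5 osteoblast markers 1 passed as higher and 2 as lower, and of 6 skeletal muscle markers 1 passed as lower. These marker shifts lay between Ad-Zip8 and Ad-null, as the results below do, and their part in those results was not tested.

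The ER folds proteins bound for secretion, and a chondrocyte, which secretes large amounts of collagen and proteoglycan, depends on it heavily. When unfolded proteins build up, the membrane sensors ATF6, IRE1 (gene Ern1) and PERK (gene Eif2ak3) start the unfolded protein response. ATF6 is cut in the Golgi to release a transcription factor, IRE1 splices the Xbp1 message so that it encodes another, and both bind promoter elements of chaperone genes such as Hspa5.

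The promoters are shown first because ATF6 and XBP1 are known to act through elements in promoters of this gene class. RefSeq promoter windows (assembly GRCm38.p6, 250 bases before to 50 bases after the transcription start) were found for 8 of the 10 genes, all but Manf and Hyou1. They were searched on both strands for 3 motifs: the ER stress element, read as CCAAT and CCACG with 9 bases between them, the ER stress element II, read as ATTGG and CCACG with 1 base between them, and the unfolded protein response element core TGACGTGG. The ER stress element was found in 4 of the 8 genes, Hspa5, Hsp90b1, Dnajc3 and Creld2, against 39 of all 32851 promoter windows (0.119%). Element II was found in Herpud1 alone of the 8, against 12 windows (0.0365%), and the core TGACGTGG in none of the 8, against 222 windows (0.676%). No matches overlapped in these genes. The genes were chosen as known targets of the response, so these counts describe the choice. Capitals mark the matched element below, each with 20 bases on either side, 5′ to 3′ on the gene's strand.
Hspa5 (chr2:34772005-34772063, plus strand): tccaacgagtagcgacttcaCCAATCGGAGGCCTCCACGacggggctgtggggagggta
Hsp90b1, farther element (chr10:86705618-86705676, minus strand): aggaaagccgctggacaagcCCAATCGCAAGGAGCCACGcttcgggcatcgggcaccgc
Hsp90b1, nearer element (chr10:86705513-86705571, minus strand): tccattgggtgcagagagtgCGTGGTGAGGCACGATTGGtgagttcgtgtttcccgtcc
Dnajc3 (chr14:118937807-118937865, plus strand): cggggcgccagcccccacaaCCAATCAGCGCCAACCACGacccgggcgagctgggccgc
Creld2 (chr15:88819500-88819558, plus strand): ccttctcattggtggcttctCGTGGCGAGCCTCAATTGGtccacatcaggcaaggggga
Herpud1, element II (chr8:94386357-94386407, plus strand): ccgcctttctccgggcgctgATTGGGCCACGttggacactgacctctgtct

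The nearer Hsp90b1 element and the Creld2 element lie on the opposite strand, so they read from CGTGG to ATTGG as printed. The elements began 65 bases before the start in Hspa5, 212 and 107 in Hsp90b1, 105 in Dnajc3, 126 in Creld2 and 52 in Herpud1. The windows of Xbp1, Dnajb9 and Sdf2l1 held none of the 3 motifs in these exact letters. The 250 bases before the start of Xbp1 are shown because Xbp1 is one of the 3 genes that fell.
Xbp1 (chr11:5520391-5520640, plus strand): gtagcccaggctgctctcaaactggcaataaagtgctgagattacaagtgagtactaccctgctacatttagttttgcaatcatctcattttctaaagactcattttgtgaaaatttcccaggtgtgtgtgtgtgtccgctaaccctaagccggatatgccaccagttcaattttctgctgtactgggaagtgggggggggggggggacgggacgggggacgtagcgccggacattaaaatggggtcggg

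**Figure D1:**
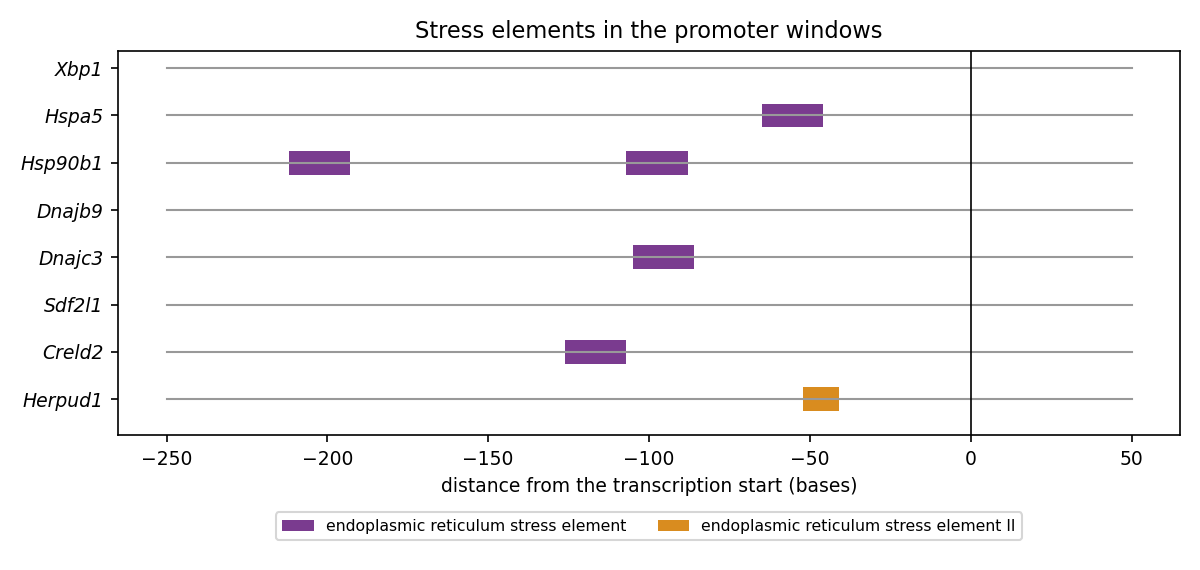
Position of matches in the promoter windows of the 8 genes with a RefSeq entry, as distance from the transcription start in bases; each grey line is a window from 250 bases before to 50 bases after the start. Hspa5, Dnajc3 and Creld2 have 1 ER stress element each (purple), Hsp90b1 has 2, Herpud1 has element II (orange), and 3 windows have no match.

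Of the 10 genes, 3 fell in Ad-Zip8 cells, Herpud1, Xbp1 and Hspa5, none rose, and 7 did not pass the test (limma, adjusted over all 22180 genes, threshold 0.05). Over all genes 5.12% were called lower and 5.48% higher. At an unadjusted p under 0.05 the same fit had 3 of the 10 lower and 1 higher, against 12.4% of all genes lower and 10.3% higher. The median log2 difference of the 10 was -0.13, against -0.02 for all genes, and 9 of the 10 differences were negative, against 54.1% of all genes. Over the 11090 genes of at least median mean level, which include all 10, the median was -0.045. The 3 genes called lower were also those whose values did not overlap between groups, which holds in that direction for 9.74% of all genes and in the other for 7.89%. In fits without Ad-Zip8 replicate 1, 3 or 4, or without Ad-null replicate 1 or 2, Herpud1 was the 1 gene still called.

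**Figure D2:**
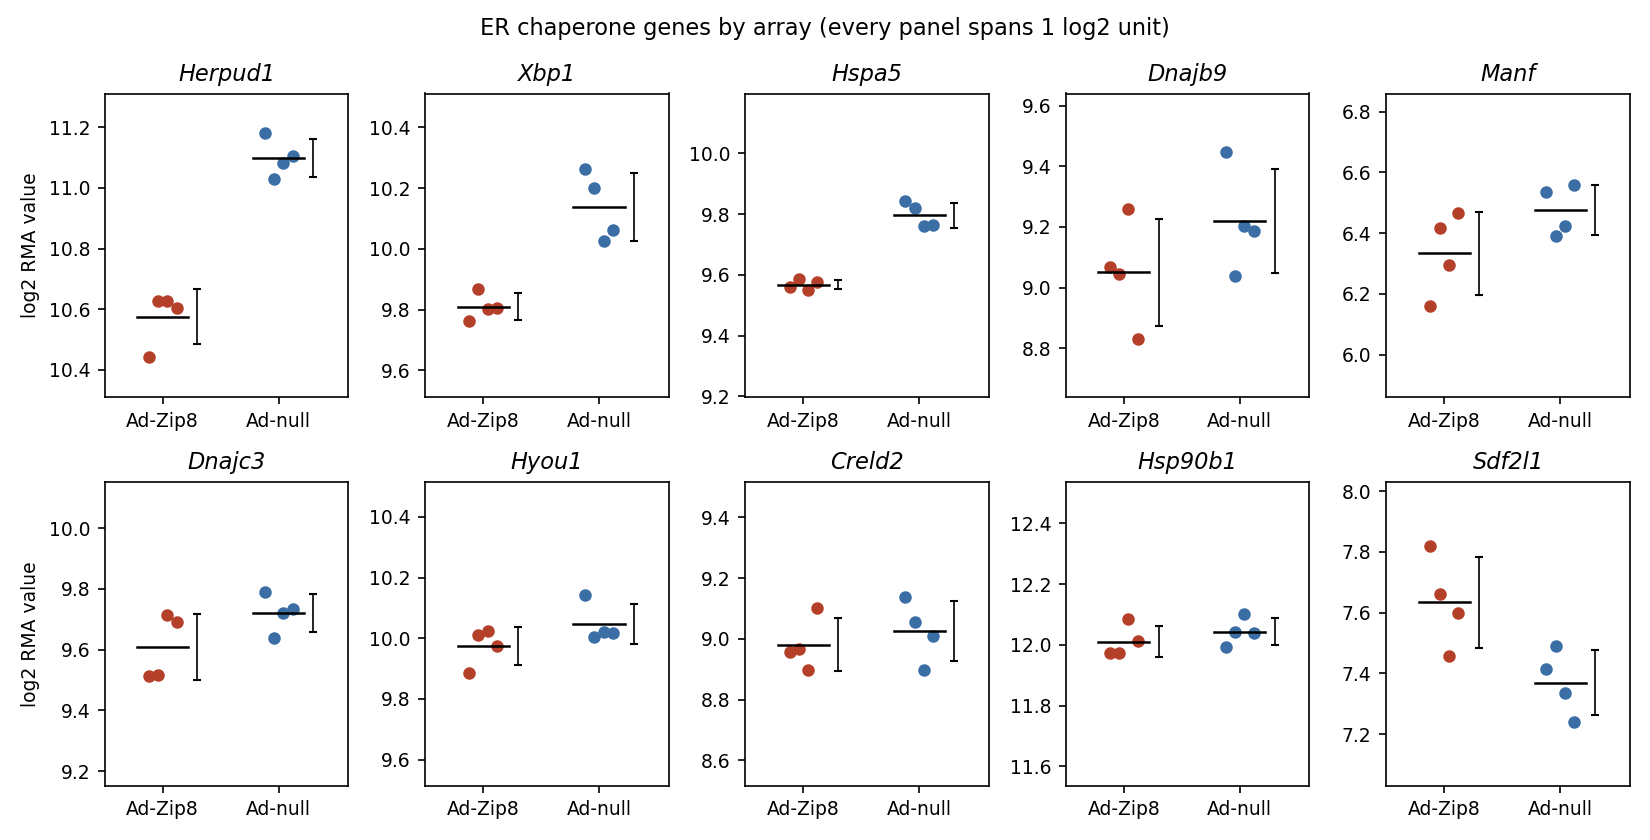
Log2 RMA values of the 10 genes in each array, with Ad-Zip8 (red, 4 arrays) left of Ad-null (blue, 4 arrays); horizontal lines are group means and bars beside them 1 SD, and every panel spans 1 log2 unit. The groups are separate for Herpud1, Xbp1 and Hspa5 and overlap in the other 7 genes.

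Xbp1 encodes the transcription factor that IRE1 splicing activates. Its log2 values were 9.76, 9.87, 9.80 and 9.81 in Ad-Zip8 cells, against 10.26, 10.20, 10.02 and 10.06 in Ad-null cells. Every Ad-Zip8 value was below every Ad-null value. Xbp1 fell 1.25-fold (log2 difference -0.33, SE 0.08, limma adjusted p = 0.0223). The array gave 1 value for the gene, so spliced and unspliced message were not distinguished. The call was lost in 5 of the 8 fits with 1 array left out: adjusted p was 0.0647, 0.0512 and 0.0561 in the fits lacking Ad-Zip8 replicate 1, 3 and 4, and 0.0607 and 0.0651 in those lacking Ad-null replicate 1 and 2.

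The sensors and activators of the response were counted as a list of 12 genes. Of these 4 fell, none rose and 8 did not pass, where 5.12% of all genes fell and 5.48% rose. The median log2 difference was -0.13, against -0.02 for all genes. At an unadjusted p under 0.05, 5 were lower and 0 higher (12.4% and 10.3% over all genes). Creb3l2, a transcription factor of the ATF6 type that is needed for matrix secretion in mouse cartilage, had values of 10.54, 10.80, 10.73 and 10.68 with Ad-Zip8, against 11.22, 11.23, 11.36 and 11.10 with Ad-null. The groups were separate, and Creb3l2 fell 1.46-fold (log2 difference -0.54, SE 0.08, adjusted p = 0.00271). Atf6 fell 1.22-fold (-0.29, SE 0.07, adjusted p = 0.0342) and Eif2ak3 1.23-fold (-0.29, SE 0.07, adjusted p = 0.0291). Creb3, a relative of Creb3l2, fell 1.19-fold (adjusted p = 0.0357). A fit with the replicate number as a block ended the calls of Eif2ak3 (adjusted p = 0.0697) and Creb3 (0.0692), and leaving out 1 array ended the call of Eif2ak3 in 6 of 8 fits, of Atf6 in 7 and of Creb3 in 8. Ern1, the gene of the enzyme that splices Xbp1, had a log2 difference of 0.02, with a 95% interval of -0.14 to 0.19. Its values overlapped widely, at 8.73 to 8.84 with Ad-Zip8 and 8.62 to 8.83 with Ad-null. With that block 2 of the 12 passed as lower, and fits without 1 array gave 1 to 3: 1 without Ad-Zip8 replicate 1, 2 or 4 or Ad-null replicate 1, 2 or 4, and 2 without Ad-null replicate 3.

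Hspa5 encodes BiP, the main Hsp70 chaperone of the ER lumen. It measured 9.56, 9.59, 9.55 and 9.58 in Ad-Zip8 cells, against 9.84, 9.82, 9.76 and 9.76 in Ad-null cells. The groups were separate and tight, with SDs of 0.015 for Ad-Zip8 and 0.041 for Ad-null (n = 4 each). Hspa5 fell 1.17-fold (log2 difference -0.23, SE 0.06, adjusted p = 0.0444). The call was lost with the replicate block (adjusted p = 0.0744), after repeated quantile normalization (0.0645) and in each of the 8 fits with 1 array left out (0.0674 to 0.108). The exact two-sided permutation test of its 8 values gave p = 0.0286, the smallest that 4 against 4 arrays allow.

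Dnajb9, Dnajc3 and Hyou1, whose products work with BiP, did not pass, and all had negative differences. Dnajb9 encodes a J-domain partner of BiP that binds misfolded proteins. Its values were 9.07, 9.04, 9.26 and 8.83 with Ad-Zip8, against 9.45, 9.04, 9.20 and 9.19 with Ad-null, the widest scatter of the 10 genes in both groups. The log2 difference was -0.17 with a 95% interval of -0.42 to 0.08 (adjusted p = 0.438). Dnajc3 encodes a J-domain partner that also inhibits PERK. It measured 9.51, 9.52, 9.71 and 9.69 with Ad-Zip8, against 9.79, 9.64, 9.72 and 9.73 with Ad-null. Ad-Zip8 replicates 1 and 2 lay below every Ad-null value and the other two did not (log2 difference -0.11, interval -0.29 to 0.06). Hyou1 encodes the large Hsp70 relative that exchanges nucleotide on BiP. Its values were 9.89, 10.01, 10.02 and 9.98 with Ad-Zip8, against 10.14, 10.01, 10.02 and 10.02 with Ad-null. The groups differed by -0.07 (interval -0.23 to 0.08), with Ad-null replicate 1 standing above the rest.

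Sdf2l1 had the 1 positive difference. Its product is a lumenal protein that keeps client proteins soluble in the BiP cycle. The values were 7.82, 7.66, 7.46 and 7.60 with Ad-Zip8, against 7.41, 7.49, 7.34 and 7.24 with Ad-null. The groups overlapped by Ad-Zip8 replicate 3 alone, which lay below Ad-null replicate 2. The log2 difference was 0.26 (SE 0.09, 95% interval 0.06 to 0.47), and it did not pass (limma adjusted p = 0.117). It passed after genes of below-median mean were left out (adjusted p = 0.0444).

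Hsp90b1 encodes GRP94, the Hsp90 chaperone of the ER. It measured 11.97, 11.97, 12.08 and 12.01 with Ad-Zip8, against 11.99, 12.04, 12.10 and 12.04 with Ad-null. The values intermingled, and the log2 difference of -0.03 had a 95% interval of -0.18 to 0.11. Its promoter window held 2 stress elements, the most among the 8 windows searched.

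Creld2 and Manf encode small ER proteins that are also secreted under stress. Creld2, which has protein disulfide isomerase activity, measured 8.96, 8.97, 8.90 and 9.10 with Ad-Zip8, against 9.14, 9.06, 8.90 and 9.01 with Ad-null (log2 difference -0.04, 95% interval -0.22 to 0.13). Manf, which binds BiP, measured 6.16, 6.42, 6.29 and 6.47 with Ad-Zip8, against 6.54, 6.39, 6.42 and 6.56 with Ad-null (-0.14, interval -0.34 to 0.05). Both genes' groups overlapped. Their nearest relatives did pass, in opposite directions. Creld1 had values of 7.48, 7.31, 7.26 and 7.13 with Ad-Zip8, against 6.90, 6.91, 6.75 and 6.70 with Ad-null, and it rose 1.39-fold (log2 difference 0.48, SE 0.09, limma adjusted p = 0.00904). Cdnf had values of 6.60, 6.86, 6.58 and 6.82 with Ad-Zip8, against 7.33, 7.27, 7.05 and 7.25 with Ad-null, and it fell 1.42-fold (-0.51, SE 0.09, adjusted p = 0.00701). Whether each differed from its relative was not tested.

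Herpud1 had the largest change of the 10. It encodes a membrane protein of ER-associated degradation, which returns misfolded proteins to the cytosol for destruction. Its values were 10.44, 10.63, 10.63 and 10.60 in Ad-Zip8 cells, against 11.18, 11.03, 11.08 and 11.10 in Ad-null cells. The lowest Ad-null array stood 0.40 log2 units above the highest Ad-Zip8 array. Herpud1 fell 1.44-fold (log2 difference -0.52, SE 0.07, limma adjusted p = 0.00144), a difference that ranked 455 of 22180 from the lowest. It passed in all 8 fits with 1 array left out (adjusted p = 0.00401 to 0.00598) and with the replicate block (0.0101).

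**Figure D3:**
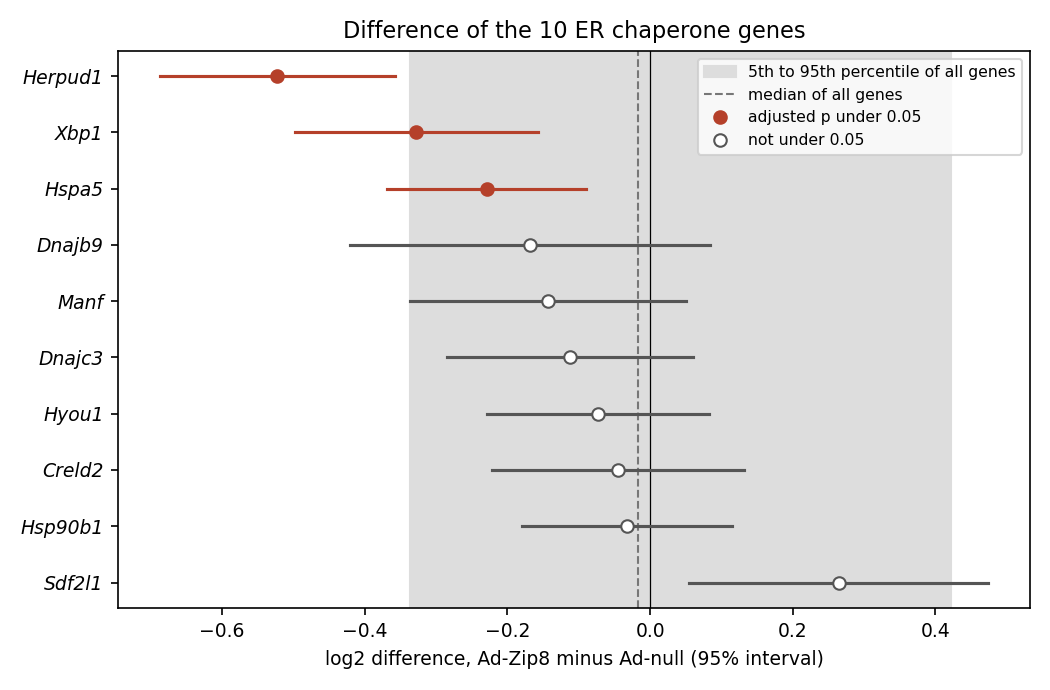
Log2 difference, Ad-Zip8 minus Ad-null, of each gene with its unadjusted 95% interval from limma (4 arrays a group); the grey band runs from the 5th (-0.34) to the 95th (0.42) percentile of all 22180 genes and the dashed line is their median. Herpud1 lies outside the band at -0.52, Xbp1 (-0.33) and Hspa5 (-0.23) are called lower inside it, and Sdf2l1 (0.26) is the 1 gene to the right of 0.

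Partners of Herpud1 in degradation did not pass. Of 20 listed genes of ER-associated degradation 18 were measured, of which 0 fell and 0 rose by limma (5.12% and 5.48% over all genes). At an unadjusted p under 0.05, 8 were lower and 0 higher (12.4% and 10.3% over all genes). The median log2 difference was -0.10. Derl1, a channel-like membrane protein gene, had a log2 difference of -0.27 (SE 0.08, adjusted p = 0.0524). Edem1, which encodes a lectin that marks glycoproteins for disposal, differed by -0.28 (adjusted p = 0.112), Erlec1 by -0.26 and Selenos by -0.21. When the fit let the expected variance follow the mean level (a variance trend), 5 were called lower, and likewise 5 when dim genes, those of below-median mean, were left out.

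Other chaperones and folding enzymes of the ER made a list of 34 genes, of which 29 were measured. Of these 7 fell, 1 (Creld1) rose and 21 did not pass, the median log2 difference being -0.07. Over all genes 5.12% were called lower and 5.48% higher. Of the 29, 9 were lower and 1 higher at an unadjusted p under 0.05 (12.4% and 10.3% over all genes). Serpinh1, the gene of the collagen chaperone HSP47, averaged 10.67 ± 0.13 with Ad-Zip8, against 11.04 ± 0.07 with Ad-null (SD, n = 4 each). The groups were separate, and Serpinh1 fell 1.29-fold (log2 difference -0.37, SE 0.08, adjusted p = 0.0203). Cnpy2 fell 1.38-fold (adjusted p = 0.00637). The general lectin chaperones and disulfide isomerases had differences near 0: Calr -0.03, Canx 0.01, Pdia3 0.00225, Pdia6 -0.08 and P4hb -0.11, and none passed. The signs of Calr, Canx and Pdia3 depended on the scaling of the arrays. Leaving out 1 array gave 2 to 5 lower genes, namely 2 without Ad-Zip8 replicate 1 or 4 or Ad-null replicate 3, 3 in the fit lacking Ad-null replicate 1, and 4 in those lacking Ad-Zip8 replicate 2 or Ad-null replicate 2 or 4. The Serpinh1 call was kept in 5 of these 8 fits.

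Folded proteins leave the ER in coated vesicles. Of 23 genes of this ER-to-Golgi transport, 7 fell, none rose and 16 did not pass, where 5.12% of all genes fell and 5.48% rose. The median log2 difference was -0.20, and 13 were lower and 0 higher at an unadjusted p under 0.05 (12.4% and 10.3% over all genes). Kdelr3 encodes a receptor that returns lumenal chaperones such as BiP from the Golgi. Its values were 9.89, 10.02, 10.13 and 10.06 in Ad-Zip8 cells, against 10.70, 10.39, 10.57 and 10.50 in Ad-null cells. Kdelr3 fell 1.43-fold (log2 difference -0.52, SE 0.09, limma adjusted p = 0.00429). The cargo receptor gene Ctage5 fell 1.28-fold (adjusted p = 0.0127), the vesicle coat gene Sec24a 1.23-fold (0.0173) and the membrane fusion gene Sec22b 1.27-fold (0.0270; 0.0527 with the replicate block). Leaving out 1 array ended the call of Sec22b in 7 of 8 fits and of Sec24a in 1, that without Ad-Zip8 replicate 1. The count of 7 was 3 with the replicate block, 4 with repeated quantile normalization and 12 with the variance trend or without dim genes. It was 2 without Ad-Zip8 replicate 1 and 3 without Ad-Zip8 replicate 2 or any 1 of the Ad-null replicates.

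Upstream of folding, all 24 genes of translocation, signal cleavage and N-glycosylation had negative differences, against 54.1% of all genes. The differences ran from -0.44 to -0.03 with a median of -0.18. However, 0 passed as lower or higher in limma (5.12% and 5.48% over all genes). At an unadjusted p under 0.05, 14 were lower and 0 higher, where all genes had 12.4% and 10.3%. Those shares, here and for the other lists, include dim genes. How large they are among genes of like level was not tested. Ssr4, a translocon-associated protein gene, differed by -0.28 (SE 0.08, adjusted p = 0.0633), and Spcs1, a signal peptidase subunit gene, by -0.25 (adjusted p = 0.0710). Stt3a, a catalytic subunit gene of N-glycosylation, differed by -0.21 (adjusted p = 0.0733). The variance trend called 10 of the 24 lower, leaving out dim genes 8, and leaving out Ad-null replicate 2 or repeated quantile normalization 1.

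**Figure D4:**
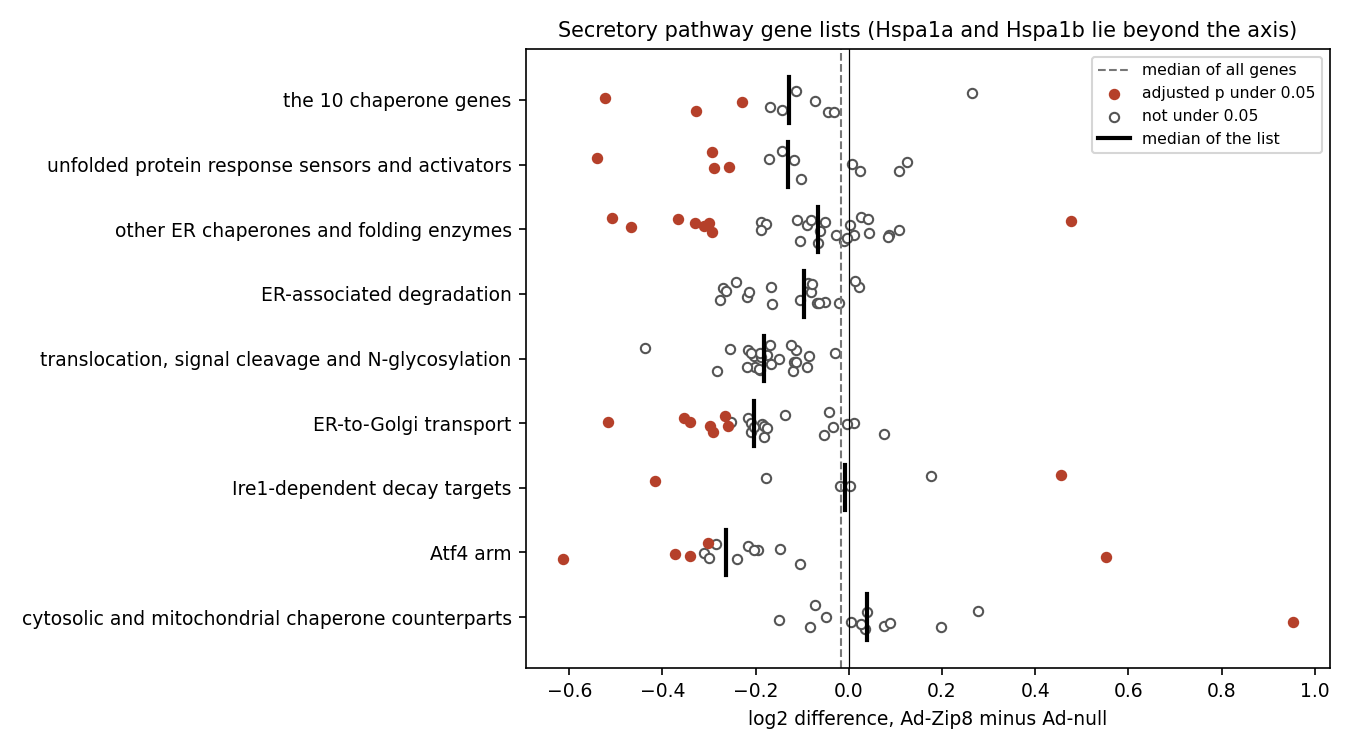
Log2 difference, Ad-Zip8 minus Ad-null, of every measured gene in 9 lists (1 point a gene, vertical jitter only for display, Hspa1a and Hspa1b beyond the axis); filled points passed limma at an adjusted p under 0.05, thick bars are list medians and the dashed line is the median of all genes. The list medians run from -0.26 (Atf4 arm) to 0.04 (chaperone counterparts outside the ER), with the 10 genes at -0.13.

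Outputs of the other sensors were counted in the same fit. In the Atf4 arm, which PERK feeds, 4 of 14 genes fell, 1 rose and 9 did not pass (median log2 difference -0.26). Over all genes 5.12% were called lower and 5.48% higher. Of the 14, 9 were lower and 1 higher at an unadjusted p under 0.05 (12.4% and 10.3% over all genes). Chac1, a glutathione-degrading enzyme gene, fell 1.53-fold (log2 difference -0.61, SE 0.08, adjusted p = 9.73e-04), Atf4 itself 1.23-fold (adjusted p = 0.0300, a call kept in 2 of the 8 fits with 1 array left out), and the stress gene Ddit4 rose 1.47-fold (adjusted p = 0.00461). The count of 4 lower genes in this arm was 9 with the variance trend or without dim genes. It was 1 in fits lacking Ad-Zip8 replicate 1 or 4 or Ad-null replicate 1, and 2 in those lacking Ad-Zip8 replicate 2 or Ad-null replicate 2 or 4. Among 6 messages known as substrates of IRE1-dependent decay, in which IRE1 cuts other messages, Pdgfrb fell (-0.42, adjusted p = 0.0149), Scara3 rose (0.46, adjusted p = 0.0392) and 4 did not pass. Of these 6, 1 was thus lower and 1 higher, where all genes had 5.12% and 5.48%. At an unadjusted p under 0.05, 2 were lower and 2 higher (12.4% and 10.3% over all genes). Their median log2 difference was -0.008, against -0.02 for all genes. Sparc differed by -0.18 and Col6a1 by 0.18. The Scara3 call was lost in all fits with 1 array left out except those without Ad-Zip8 replicate 3 or Ad-null replicate 2.

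Counterparts of these chaperones in the cytosol and mitochondria were counted for comparison. Of 17 listed genes 15 were measured, of which 3 rose, none fell and 12 did not pass. Their median log2 difference was 0.04. Over all genes 5.12% were called lower and 5.48% higher. Of the 15, 0 were lower and 4 higher at an unadjusted p under 0.05 (12.4% and 10.3% over all genes). Hspa1a, the stress-inducible Hsp70 gene, had values of 9.09, 8.58, 8.18 and 7.79 in Ad-Zip8 cells, against 4.86, 4.53, 4.84 and 4.76 in Ad-null cells. The groups were far apart, and Hspa1a rose 12.7-fold (log2 difference 3.66, SE 0.23, adjusted p = 1.32e-05). The Ad-null values lie below the array medians, where differences are compressed, and Hspa1a and Hspa1b (9.39-fold) are near-identical genes whose values are uncertain between them. Hspa4l, an Hsp110 relative, rose 1.94-fold (adjusted p = 0.00169). Dnajb1 had a log2 difference of 0.28 (adjusted p = 0.0978), Hsp90aa1 of 0.20 (0.296) and Hsph1 of 0.09 (0.590).

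A total of 6 gene pairs were compared within arrays, as the log2 value of the first gene minus that of the second, to ask whether the 2 genes changed unequally. The absolute size of such a difference has no meaning, since 2 probe sets differ in brightness. Hspa5 minus Hspa1a shifted by -3.89 between the groups, which did not overlap (exact two-sided permutation p = 0.0286, 0.0686 adjusted over the 6 pairs). Herpud1 minus Hspa5 shifted by -0.29, again without overlap (exact p = 0.0286, adjusted 0.0686). Xbp1 minus Hspa5 shifted by -0.10, Hsp90b1 minus Hsp90aa1 by -0.23 and Dnajb9 minus Dnajb1 by -0.45, each with overlap and an exact permutation p = 0.0571 (adjusted 0.0686). Hyou1 minus Hsph1 shifted by -0.16 (exact p = 0.143). All 6 shifts were negative and none passed after adjustment. With so few arrays the exact p cannot fall below 0.0286, however large the shift. After adjustment a pair at that floor could pass only if most of the 6 pairs also reached it. Shifts of -3.89 and -0.10 thus shared the adjusted value of 0.0686. The adjusted test therefore cannot decide whether a given pair changed unequally, and no conclusion is drawn from its failure to pass.

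**Figure D5:**
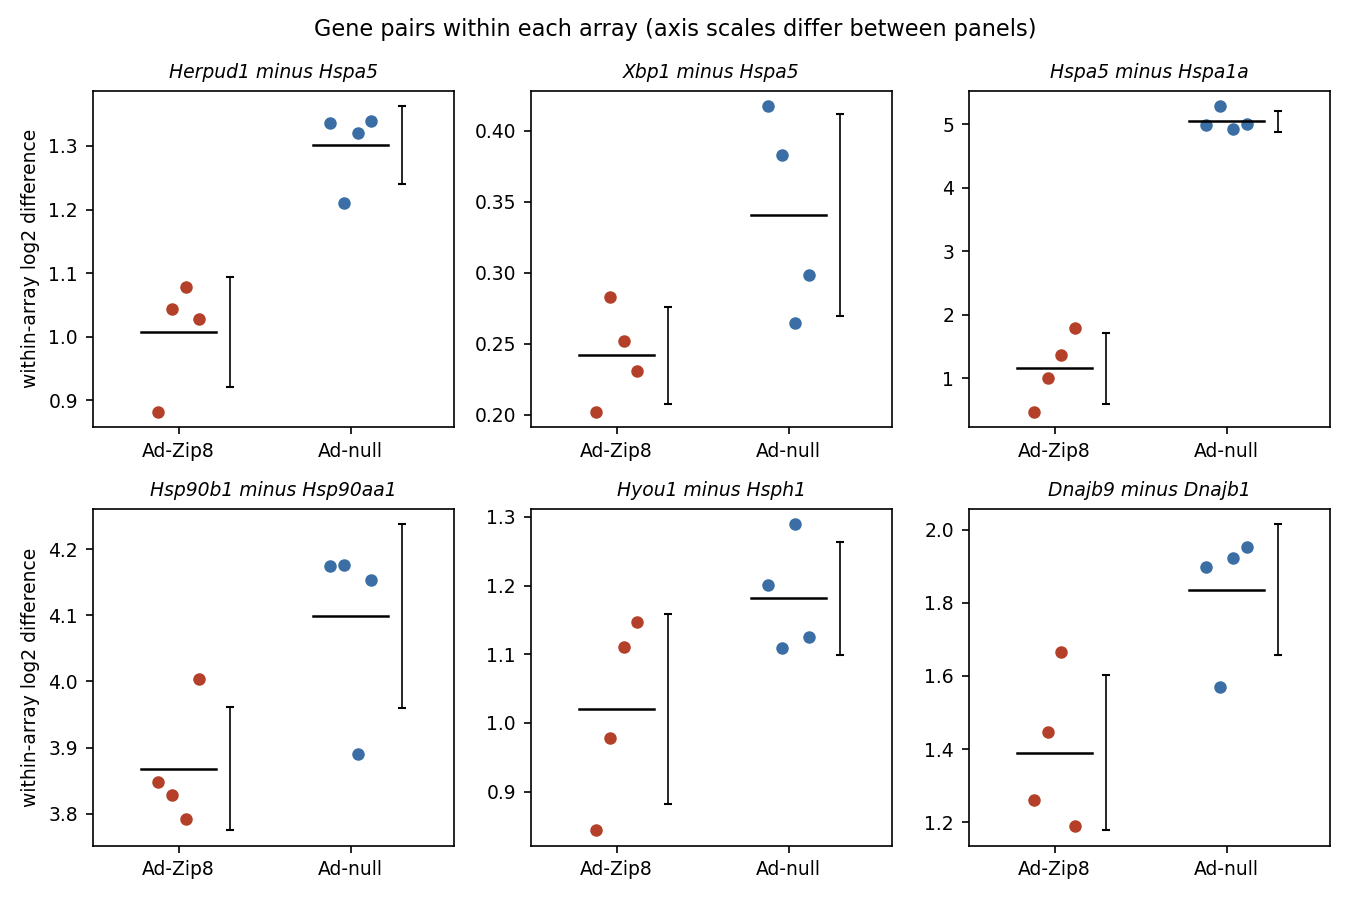
Within-array log2 difference of each gene pair, with Ad-Zip8 (red, 4 arrays) left of Ad-null (blue, 4 arrays); lines are group means, bars 1 SD, and axis scales differ between panels. The groups are separate for Herpud1 minus Hspa5 and for Hspa5 minus Hspa1a and overlap in the other 4 pairs.

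The promoter elements were then set beside the changes. Among the 4 genes with the ER stress element, Hspa5 fell while Dnajc3, Creld2 and Hsp90b1 did not pass. Across the array, 29 measured genes carried that element, these 4 included, of which 3 fell and none rose. Their median log2 difference was -0.07. Without the 4, 25 carriers remained, of which 2 fell and none rose, again with a median of -0.07. Of 9 with element II, Herpud1 fell and 8 did not pass. The core TGACGTGG, found in none of the 8 windows searched among the 10 genes, occurred in 147 measured genes, of which 22 (15.0%) fell and 6 (4.08%) rose, against 5.12% lower and 5.48% higher over all genes. The carriers that fell included Kdelr3, Txndc11 (-0.29), Sec23a (-0.29) and Sec24d (-0.26), and all but Kdelr3 of these were picked out after their values were seen. Carriers in the gene lists above that did not pass were Txndc5 (-0.19), Ube2j1 (-0.08) and Vcp (0.01). A match to these letters is not evidence that a factor binds there.

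Ad-null replicate 1 lay above its group mean in 9 of the 10 genes, by 0.08 log2 units on average, and Ad-Zip8 replicate 1 was above its group mean in 2 of the 10, with an average deviation of -0.04. The other 6 arrays deviated by -0.04 to 0.02 on average. Ad-Zip8 replicate 1 also held the lowest values of its group for Herpud1, Creb3l2, Eif2ak3, Kdelr3, Serpinh1 and Cnpy2 and the highest for Hspa1a and Hspa1b. Its Slc39a8 value of 11.16 lay within the range of the other Ad-Zip8 arrays, 10.90 to 11.24.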

How the data were processed

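RNA was labelled with biotin by a whole-transcript kit, per the labels' protocols. The authors deposited 1 log2 value per probe set and array, which came from RMA per the submitters' processing notes. The sources used here do not give its version, the probe set annotation or the build. Values ran from 0.85 to 13.8. Array differences are compressed toward both ends of such a range, which was not measured here. Precision is limited by the number of arrays.

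A single gene symbol was held by 23521 of 41345 probe sets; 1814 with more than 1 and 16010 absent from the annotation stayed unnamed here. The reference gene table held 23328 of the 23521 Entrez identifiers. Older symbols in lists were matched through it, and unmatched list genes were not analysed here. Limma 3.58.1 (R 4.3.3; lmFit and eBayes, two-sided, no covariates) was fitted over all 22180 genes with Benjamini-Hochberg adjustment. It was tested on simulated data. Intervals are pointwise. Single comparisons used exact permutation over the 70 splits of the 8 arrays.

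The genes, lists, motifs (textbook forms) and naming rule were chosen with earlier results of these data known. The rule named the 10 genes, the 6 pairs, Slc39a8, the sensors, 7 folding genes and up to 4 genes per list with the smallest adjusted p. Deviations of same-numbered arrays from their group means correlated at 0.11 to 0.37, and those of other arrays across groups at -0.27 to 0.16, so the replicate numbers were taken as pairs in an alternative fit. This pairing comes from the data, not the labels. Alternatives were the replicate block, a variance trend, genes of below-median mean left out, 2 rescalings, array weights and each array left out.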

Additional observations from a re-analysis of the deposited data

Results flagged for a closer look

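Within-group outliers were sought by Dixon's test among 57 genes and gene pairs, 114 groups of 4 arrays in all, and chance alone flags about 1 group in 20. The flagged values were the lowest or highest of their group, far from the nearest other array relative to the group's range. Among the 10 genes, Herpud1 in Ad-Zip8 replicate 1 was low at 10.44 (nearest 10.60), and Hyou1 in Ad-null replicate 1 was high at 10.14 (nearest 10.02). Without Ad-Zip8 replicate 1, Herpud1 still passed (log2 difference -0.48, limma adjusted p = 0.00446).

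Other genes with such a value were Cnpy2 (10.39, nearest 10.62) and Stt3a (11.67, nearest 11.78), both low in Ad-Zip8 replicate 1. Pdia3 was high in Ad-Zip8 replicate 3 (11.68, nearest 11.50), Chac1 was high in Ad-Zip8 replicate 2 (8.69, nearest 8.54), and Serpinh1 was high in Ad-null replicate 3 (11.14, nearest 11.01). Among pairs, Herpud1 minus Hspa5 was low in Ad-null replicate 2 (1.21, nearest 1.32), Hsp90b1 minus Hsp90aa1 was low in Ad-null replicate 3 (3.89, nearest 4.15) and Dnajb9 minus Dnajb1 was low in Ad-null replicate 2 (1.57, nearest 1.90).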

How the results depend on the processing

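Herpud1 was called lower in every fit run, and Xbp1 in every fit on all 8 arrays. Hspa5 was not called with the replicate block (-0.23, limma adjusted p = 0.0744) or after repeated quantile normalization (-0.20, 0.0645). Sdf2l1 was called higher with dim genes left out (0.26), so 1 of the 10 then rose. With the replicate block 2 sensors and activators and 3 genes of ER-to-Golgi transport were lower. Besides Hspa5, the block ended the calls of Eif2ak3, Creb3, Sec22b and Vldlr and of no other named gene. With the variance trend 5 genes of ER-associated degradation, 10 of translocation and glycosylation, 12 of ER-to-Golgi transport and 9 of the Atf4 arm were lower, and 2 substrates of IRE1-dependent decay were lower and 2 higher. With dim genes left out these counts were 5, 8, 12, 9, 2 and 2. Centring arrays on their medians gave 1 lower gene of ER-associated degradation, and quantile normalization gave 1 of translocation and glycosylation and 4 of ER-to-Golgi transport. Reversed signs were seen in genes with differences near 0: Canx -0.0104 and Pdia3 -0.0189 with centred arrays, and Calr 0.0249 after quantile normalization. Leaving out 1 array gave -0.0209 to 0.0360 for Canx, -0.0458 to 0.0439 for Pdia3 and -0.0190 to 0.0499 for Ern1. It also gave 708 to 923 lower genes over the whole table (1136 with all arrays, and 708 without Ad-Zip8 replicate 1), 1 to 2 of the 10 genes, 1 to 3 sensors and activators, 2 to 5 other ER chaperones, 0 to 1 of translocation and glycosylation, 2 to 6 of ER-to-Golgi transport and 1 to 3 of the Atf4 arm. It gave 0 to 1 higher substrate of IRE1-dependent decay, -0.37 to -0.29 for Xbp1 and -0.24 to -0.21 for Hspa5. Some settings tested fewer genes or arrays, and why calls changed with the setting was not tested. Other probe sets of the 10 genes could not be tried, since each had 1. The deposited values carry no background measure, so what signal over background limits was not measured.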
